A study of Homo sapiens with 2 samples.

Results

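Ribosome biogenesis and nucleolar processing genes were described in cultures labelled as HL60, a line of promyelocytic leukaemia cells of human origin; the labels also give the cell type as hematopoietic stem. One sample was left untreated and the other was exposed to eltrombopag, an oral drug that activates the receptor for thrombopoietin and chelates iron, at 3 µg/ml for 36 h; both grew in RPMI with 10% serum. The labels give neither a vehicle nor a culture time for the untreated sample, so the drug and a difference in either cannot be told apart. The list holds 46 genes chosen for their known role. The genes and their role groups were chosen with earlier results of these data known, so the counts below are not independent of the data. Of the 46 genes, 40 had a probe set that the platform annotation assigns to that gene alone, among 19775 genes named in this way. NOP56, DKC1, BOP1 and PPAN share their annotated probe sets with other named genes, and DDX18 and GNL3 had no annotated probe set here; these 6 genes were not analysed here. Each value is a MAS5 signal, a linear measure of the brightness of a probe set, and the ratios are eltrombopag over untreated. Each group holds 1 sample, so no difference has a replicate check, the treatment cannot be tested, and the number of arrays limits the precision. In bulk RNA, fewer cells of a type and less RNA per cell cannot be told apart.

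Ribosomes are built in the nucleolus. RNA polymerase I transcribes a long precursor of the ribosomal RNAs, and small nucleolar ribonucleoproteins (snoRNPs) of the box C/D and box H/ACA classes methylate it and convert uridines to pseudouridine. The small subunit processome, which contains the U3 snoRNP and many UTP proteins, folds and cleaves the part that becomes the small subunit, while a separate set of factors assembles the large subunit. In growing leukaemia cells these genes are highly active and many are known targets of the transcription factor MYC.

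None of the 40 genes differed by 2-fold between the samples, and 38 lay within 1.5-fold. LYAR was 1.66-fold higher and NOP10 was 1.61-fold lower in the eltrombopag sample. The 15 listed genes of the small subunit processome had slightly higher signals, with a median log2 ratio of 0.11. The 3 box H/ACA genes, each with 1 probe set, had lower ones, with a median of -0.38. The 6 listed RNA polymerase I genes had a median of -0.15, near the median of all genes at -0.12. Of 15 other RNA polymerase I genes outside the list, 6 were at least 1.5-fold lower, against 11.8% of all measured genes. Without the POLR2 subunits, which polymerases II and III share, it was 2 of 10, and 7 of 10 lay above the median of all genes.

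Over all 10313 measured genes, meaning those with a probe set above a floor of 56.91 in at least 1 sample, 0.65% were higher by 2-fold or more and 2.27% were lower by as much. At 1.5-fold, 3.49% were higher and 11.8% lower, against 1 of 40 members in each direction. The 2 arrays differed in overall level: the median log2 ratio was -0.12 over the 9597 genes that exceeded the floor in each, and their quartiles were -0.37 and 0.11. On the deposited scale, 22.9% of all 1.5-fold differences were higher. The share was 44.0% with this median subtracted, 43.2% after quantile normalization and 41.5% after lowess. All 40 members lay above the floor in both samples. Their median log2 ratio was 0.07, with quartiles of -0.13 and 0.18, which placed it 0.19 above the median of all genes. A ratio above 0 was found for 24 of 40 members, against 36.9% of those 9597 genes, and 29 of 40 lay above the median of all genes. With the list restricted to the 9 members with at least 2 measured probe sets, all on the same side of 0, the median was -0.13.

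**Figure D1:**
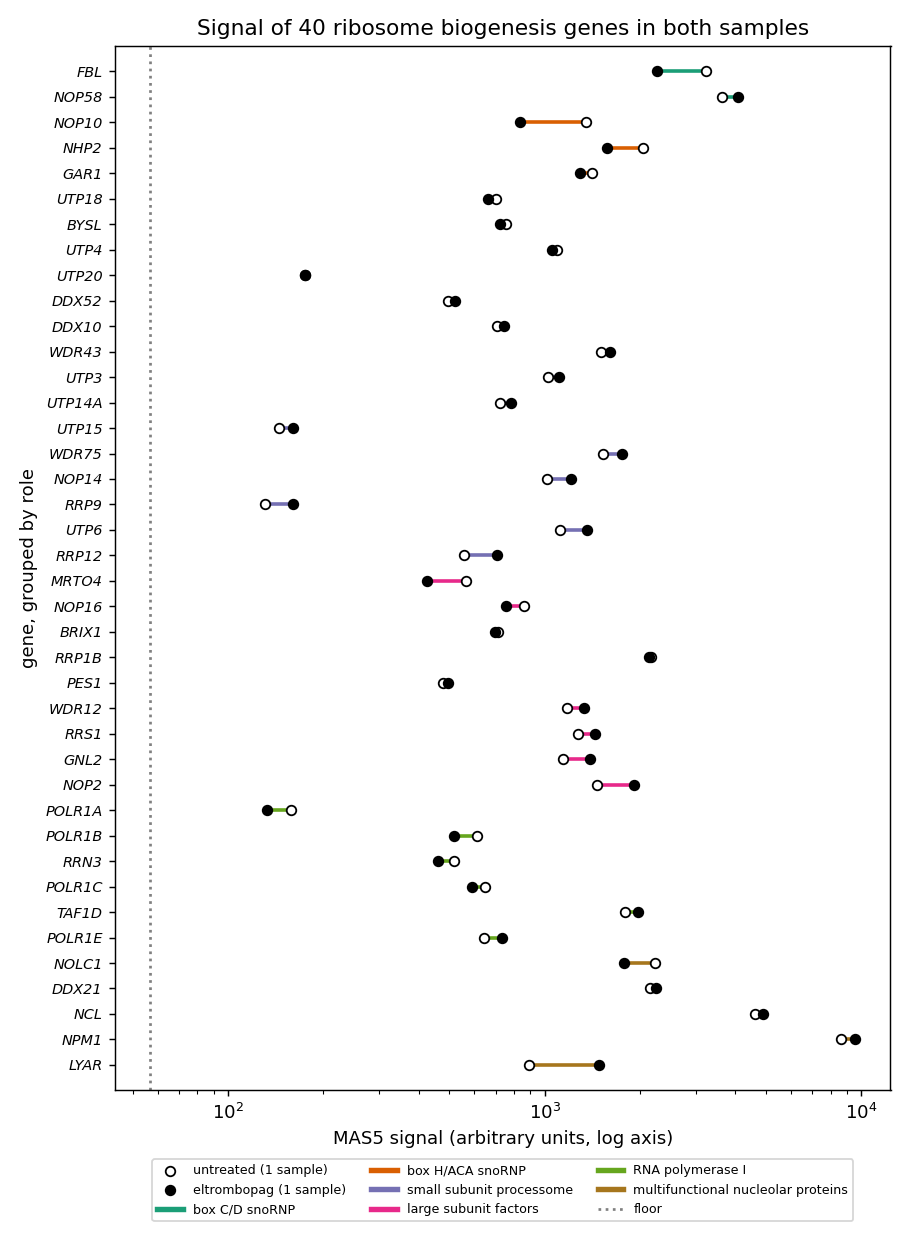
MAS5 signal (log axis, arbitrary units) of the 40 genes in the untreated sample (open circle) and the eltrombopag sample (filled circle), joined by a line coloured by role, with the floor dotted. The lines are short for most genes; LYAR runs furthest to the right and NOP10 and FBL furthest to the left.

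The sequence before the genes' start sites was examined because MYC and its partner MAX bind the E-box CACGTG. RefSeq promoter windows (assembly GRCh38.p14, 250 bases before to 50 after each start) were found for 37 of the 46 genes, and 18 of these held an E-box in at least 1 window, or 48.6%, against 10.9% of 15843 protein-coding genes. The ETS core CCGGAAG, on either strand, was present in 15 of 37 genes, or 40.5%, against 16.5%, and the YY1 core AAGATGGC in 2 of 37, or 5.41%, against 4.66%. A motif match is a description and not evidence of binding. E-boxes were present in 8 of 13 small subunit processome genes, 5 of 9 large subunit genes and 2 of 4 box H/ACA genes, and in 0 of 5 RNA polymerase I genes. Of 20 E-boxes, 9 began before the start site and 11 after it. The stretches below show the E-box in capitals with 12 bases on either side, 5′ to 3′ on the strand of the gene. They come from genes with higher signals (LYAR, RRP9, NOP14, GNL2) and lower signals (NOP10, FBL, MRTO4) in the eltrombopag sample. The stretches are examples and not a ranking, and that of NOP2, at a log2 ratio of 0.39, is not shown. In the order printed, they lie at chr4:4290068-4290097 (minus strand), chr3:51941892-51941921 (minus), chr4:2963374-2963403 (minus), chr1:37595917-37595946 (minus), chr15:34343130-34343159 (minus), chr19:39846356-39846385 (minus) and chr1:19251807-19251836 (plus).
LYAR: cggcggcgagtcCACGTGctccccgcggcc
RRP9: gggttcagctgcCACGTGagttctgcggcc
NOP14: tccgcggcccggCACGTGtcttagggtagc
GNL2: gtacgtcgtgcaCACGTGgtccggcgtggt
NOP10: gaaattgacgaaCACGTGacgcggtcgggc
FBL: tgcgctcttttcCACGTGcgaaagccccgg
MRTO4: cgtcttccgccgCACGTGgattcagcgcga

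The E-box did not separate higher from lower members. The 17 measured genes with an E-box had log2 ratios from -0.69 to 0.73 and a median of 0.05, and the 16 without one had ratios from -0.38 to 0.29 and a median of 0.08. NOP10, the gene with the lowest ratio, holds 2 E-boxes and a reverse-strand ETS core in the 250 bases before its start site (chr15:34343137-34343386, minus strand). LYAR, the gene with the highest ratio, holds 1 E-box in the same stretch of its downstream start site (chr4:4290022-4290271, minus strand) and none in that of the upstream one. Both stretches are shown with the motifs in capitals.
NOP10: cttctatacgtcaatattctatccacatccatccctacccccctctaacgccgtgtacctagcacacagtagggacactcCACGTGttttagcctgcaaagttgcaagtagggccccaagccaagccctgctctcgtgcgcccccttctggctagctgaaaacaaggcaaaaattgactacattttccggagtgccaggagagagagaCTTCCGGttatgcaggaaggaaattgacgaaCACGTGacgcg
LYAR: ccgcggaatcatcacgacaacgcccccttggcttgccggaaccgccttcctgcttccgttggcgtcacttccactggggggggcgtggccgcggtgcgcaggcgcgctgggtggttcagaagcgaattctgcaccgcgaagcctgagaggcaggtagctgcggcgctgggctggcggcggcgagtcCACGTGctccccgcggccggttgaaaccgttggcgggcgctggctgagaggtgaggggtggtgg

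Box C/D snoRNPs methylate ribose groups of ribosomal RNA, and the 2 measured genes of the listed box C/D group differed in direction. FBL, fibrillarin, the methyltransferase of the particle, had a signal of 3225 untreated and 2262 with eltrombopag, a log2 ratio of -0.51. NOP58, a scaffold protein of the same particle, had 3621 and 4070, a log2 ratio of 0.17. FBL was thus 1.43-fold lower and NOP58 1.12-fold higher, each from 1 probe set; that of FBL carries the suffix _s_at, which marks probe sets that may match several transcripts. Relative to the median of all genes, FBL lay 0.39 below and NOP58 0.29 above. SNU13, also a box C/D protein, is outside the list and was grouped here with the other small subunit factors. It had 326.5 untreated and 229.0 with eltrombopag, a log2 ratio of -0.51, and -0.25 in another probe set.

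Box H/ACA snoRNPs convert uridines to pseudouridine, and all 3 measured proteins had lower signals with eltrombopag. NOP10, a small structural protein of the particle, had 1350 untreated and 836 with eltrombopag, a log2 ratio of -0.69. After the median of all genes was subtracted, its ratio was -0.57, below 1.5-fold. NHP2, an RNA-binding protein of the particle, had 2041 and 1571, a log2 ratio of -0.38. GAR1, which assists the pseudouridine synthase, had 1415 and 1294, a log2 ratio of -0.13, close to the median of all genes. Each of these genes rests on 1 probe set, and that of NHP2 carries the suffix _s_at.

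**Figure D2:**
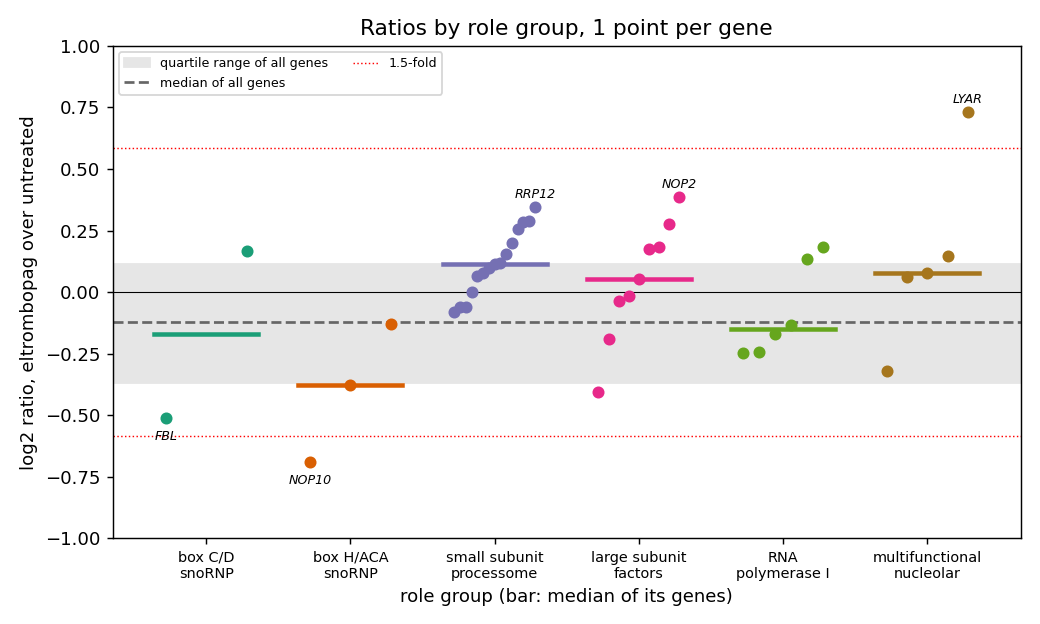
Log2 ratio of eltrombopag over untreated for each gene, by role group, with the group's median as a bar, the range between the quartiles of all genes in grey, their median dashed and 1.5-fold dotted in red. All listed small subunit processome genes lie above the dashed line at -0.12 and the 3 box H/ACA genes below it. LYAR and NOP10 alone cross the dotted lines.

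The 15 listed genes of the small subunit processome were the most uniform of the larger groups. All 15 genes were measured, their log2 ratios ran from -0.08 to 0.34, and 12 of 15 lay above 0. All 15 lay above the median of all genes, also after each of those scalings. With the mean over probe sets it was 14 of 15. The other small subunit factors, outside this list, ran from -0.51 to 0.56, with 27 of 40 above the median of all genes. The median log2 ratio of the 15 listed genes, 0.11, was 0.23 above the median of all genes. It ranged from 0.10 to 0.23 over the alternatives. An SD of 0.26 per probe set, on the log2 scale, was derived from the 2 brightest probe sets of each of 4373 genes. It is the SD of the difference between their ratios, divided by the square root of 2. In size, 12 of the 15 ratios of single genes on the deposited scale were smaller than this SD per probe set. Relative to the median of all genes, RRP12, UTP6, RRP9, NOP14, WDR75 and UTP15 exceeded it, at 0.27 to 0.46 above.

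Of the proteins that load first on the nascent transcript, UTP4 had 1096 untreated and 1052 with eltrombopag, UTP15 had 145 and 161, WDR43 had 1509 and 1614, and WDR75 had 1523 and 1750. Their log2 ratios were -0.06, 0.15, 0.10 and 0.20. WDR75 thus had the highest ratio of the 4 and UTP4 the lowest, with -0.30 in another UTP4 probe set. UTP6 and UTP18 belong to the next module, and their signals were 1118 and 702 untreated and 1366 and 665 with eltrombopag. UTP6, at a log2 ratio of 0.29, was among the higher genes of the group, and UTP18, at -0.08, was the lowest.

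RRP12, which helps to export the maturing small subunit, had the highest ratio of the group, with 556 untreated and 706 with eltrombopag, a log2 ratio of 0.34, and 0.23 in a dimmer probe set. RRP9, a protein of the U3 snoRNP, had 131 and 160, and NOP14, an assembly factor, had 1017 and 1215. The ratios of RRP9 and NOP14 were 0.29 and 0.26. UTP3 had 1025 and 1109, and UTP14A, which activates a helicase of the particle, had 720 and 782; both were higher by 0.11 and 0.12 on the log2 scale. UTP20, a large scaffold protein, had 175 in both samples. Among the RNA helicases, DDX10 had 706 and 744 and DDX52 had 497 and 519, with log2 ratios of 0.08 and 0.06. The dimmest DDX52 probe set above the floor gave -0.16. BYSL, bystin, had 755 and 723, a log2 ratio of -0.06.

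The 9 measured large subunit factors ranged more widely, from a log2 ratio of -0.40 to 0.39, with a median of 0.05. Of them, 5 of 9 lay above 0 and 7 of 9 above the median of all genes. NOP2, which methylates cytosines of the large subunit's RNA, had 1467 untreated and 1917 with eltrombopag, a log2 ratio of 0.39 and a 1.31-fold higher signal. GNL2, a nucleolar GTPase, had 1145 and 1388, a log2 ratio of 0.28. RRS1, an assembly factor, had 1272 and 1447, a log2 ratio of 0.19. These 3 genes had the highest ratios of the group.

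MRTO4, a nuclear factor that holds the place of a stalk protein, stood at the other end with 564 untreated and 426 with eltrombopag, a log2 ratio of -0.40. Its second probe set had 182 and 141, a log2 ratio of -0.37, so both probe sets gave a lower signal. NOP16 had 859 and 753, a log2 ratio of -0.19, and -0.21 in another probe set. PES1 and WDR12 form the PeBoW complex with BOP1. PES1 had 476 and 494, a log2 ratio of 0.05, and WDR12 had 1177 and 1329, a log2 ratio of 0.18, with 0.20 and -0.11 in its dimmer probe sets. BRIX1 had 713 and 696, a log2 ratio of -0.03. RRP1B had 2162 and 2138, a log2 ratio of -0.02, but 0.25 in a dimmer probe set, so that its direction is not settled. On the deposited scale, neither subunit of PeBoW measured here differed by more than the SD of 0.26 per probe set. Relative to the median of all genes, WDR12 lay 0.29 above.

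RNA polymerase I and its initiation factors had a median log2 ratio of -0.15 over 6 genes, with 2 of 6 above 0. On the deposited scale, all 6 ratios were smaller in size than the SD of 0.26 per probe set. Relative to the median of all genes, POLR1E lay 0.30 above. POLR1A and POLR1B form the catalytic core of the enzyme. POLR1A had 158 untreated and 133 with eltrombopag, a log2 ratio of -0.25, and its other probe sets gave -0.30 and -0.75. All 3 POLR1A probe sets were thus lower, but by amounts that differed by 0.50. POLR1B had 613 and 518, a log2 ratio of -0.24, whereas its other probe sets ran from -0.22 to 0.17.

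POLR1C, a subunit shared with RNA polymerase III, had 648 untreated and 591 with eltrombopag, a log2 ratio of -0.13, and -0.31 in another probe set. POLR1E, of the heterodimer that aids initiation, had 644 and 732, a log2 ratio of 0.18, but -0.15 in another probe set. RRN3, which links the polymerase to the promoter, had 516 and 459, a log2 ratio of -0.17. TAF1D, a subunit of the promoter selectivity factor SL1, had 1790 and 1967, a log2 ratio of 0.14. The group held no gene at 1.5-fold.

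**Figure D3:**
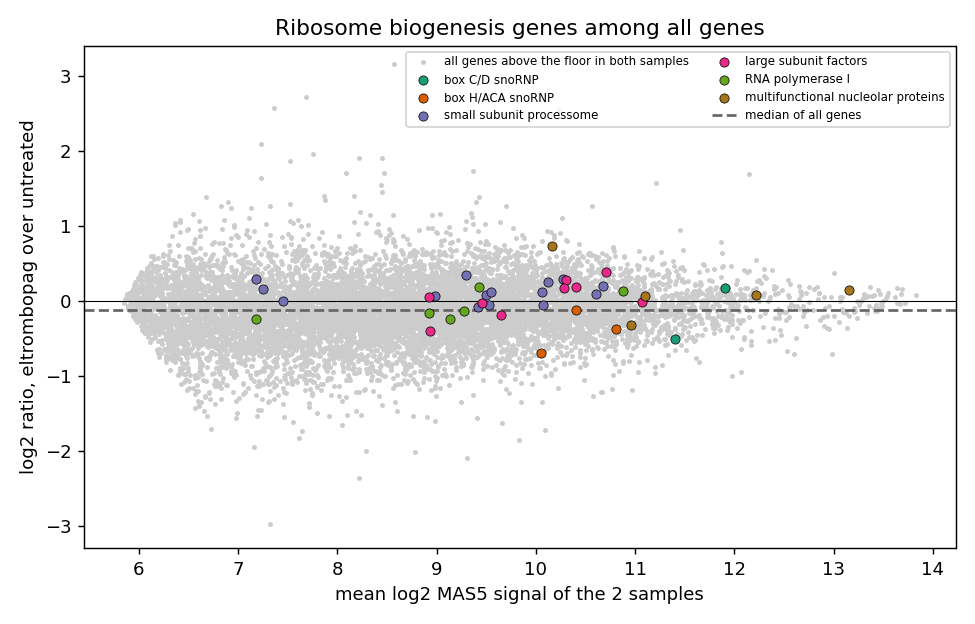
Log2 ratio of eltrombopag over untreated against the mean log2 MAS5 signal, 1 grey point per gene above the floor in both samples, with the members coloured by role and the median of all genes dashed. The members lie within the cloud of all genes, between ratios of -0.69 and 0.73.

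The multifunctional nucleolar proteins included the gene with the highest ratio. LYAR, a zinc-finger protein of the nucleolus linked to cell growth, had 892 untreated and 1482 with eltrombopag, a log2 ratio of 0.73. Its other probe set had 475 and 657, a log2 ratio of 0.47, so both probe sets gave a higher signal and the brighter one passed 1.5-fold. Both carry the suffix _s_at, so that LYAR has no value when such probe sets are left out. NOLC1, a snoRNP chaperone, had 2228 and 1784, a log2 ratio of -0.32, with -0.23 and -0.78 in its other probe sets.

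NCL, nucleolin, had 4631 untreated and 4893 with eltrombopag, a log2 ratio of 0.08. NPM1, nucleophosmin, which is often mutated in acute myeloid leukaemia, had 8653 and 9572 in the probe set used, a log2 ratio of 0.15. Its other probe sets were lower with eltrombopag, at 5544 and 5152 and at 5175 and 4185, with log2 ratios of -0.11 and -0.31. DDX21, a helicase of nucleolar RNA, had 2156 and 2249, a log2 ratio of 0.06, and -0.16 in its other probe set. The directions of NPM1 and DDX21 are therefore not settled, and NPM1, which has many near-identical pseudogene copies, is uncertain for that reason too.

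Between probe sets of the same gene, 15 members could be compared. In 10 of 15 the 2 brightest probe sets lay on the same side of 0, and in 5 of 15 on opposite sides. Their median difference in size was 0.22 on the log2 scale, against 0.21 over 4373 genes. Over all members, 29 of 40 ratios on the deposited scale were smaller in size than the SD of 0.26 per probe set. That SD comes from disagreement within these arrays and does not measure error between cultures.

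**Figure D4:**
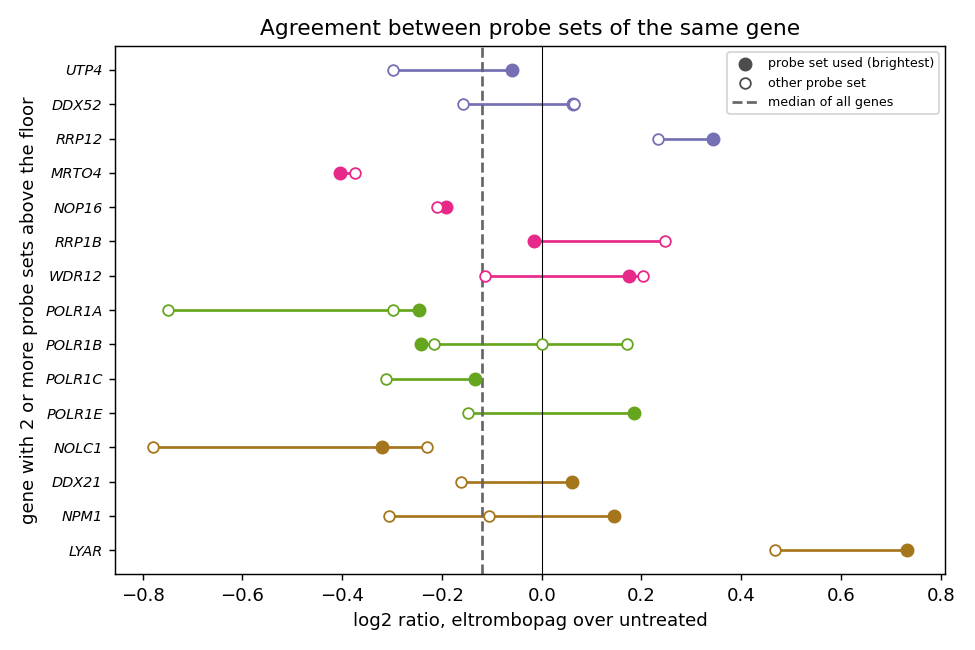
Log2 ratio of eltrombopag over untreated for each probe set that exceeded the floor in both, for the 15 members with more than 1; the filled point is the probe set used and the dashed line the median of all genes. LYAR and RRP12 lie wholly to the right of 0, MRTO4, NOP16, UTP4, POLR1A, POLR1C and NOLC1 wholly to the left, and the others on both sides.

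Some genes of ribosome biogenesis hold snoRNA genes in their introns. In the RefSeq gene table, 9 of 46 members had a snoRNA gene within their span on either strand, or 19.6%, against 2.62% of 20056 protein-coding genes. Whether the snoRNA genes lay in introns was not checked. Of these 9, 4 had no probe set of their own (NOP56, DKC1, GNL3 and PPAN). The other 5, NOP58, UTP20, WDR43, TAF1D and NCL, had log2 ratios between 0.001 and 0.17. The 35 measured members without a snoRNA ranged from -0.69 to 0.73, with a median of 0.06. Across the 40 members, the log2 ratio had a Spearman's rho of 0.11 with the length of the gene's span, close to 0.13 across 9589 genes; genes are not independent replicates.

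The other genes of the pathway comprised 127 genes, of which 123 were measured, all of them above the floor in both samples. Of these, 0 were at least 1.5-fold higher and 8 were at least 1.5-fold lower, against 3.49% and 11.8% of all genes. After median centring it was 5 higher and 7 lower, against 5.89% and 7.48% of all genes on that scale. Their median log2 ratio was -0.02, and 82 of 123 lay above the median of all genes. The other small subunit factors had a median of 0.05 over 40 genes and the other large subunit factors a median of 0.03 over 43. Neither list held a gene at 1.5-fold on the deposited scale in the probe set used, the brightest. Dimmer probe sets passed it in both directions, with log2 ratios of 0.99 for DDX31, 0.79 for HEATR1, -0.91 for SENP3 and -0.74 for DIMT1. After median centring, each of the 2 lists held 2 genes at least 1.5-fold higher and 0 lower.

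Of the 8 lower genes, 6 belonged to the 15 other RNA polymerase I genes, or 2 of 10 without the POLR2 subunits. Under each of the 3 other scalings of the arrays, 5 of 15 were at least 1.5-fold lower. The share of all measured genes was 7.48% after median centring, 7.54% after quantile normalization and 7.72% after lowess. POLR2F, POLR2L and POLR2K encode small subunits that RNA polymerases I, II and III share. POLR2F had 402 untreated and 167 with eltrombopag, a 2.41-fold lower signal and the 1 gene of the pathway past 2-fold. POLR2L had 752 and 378, 1.99-fold lower, and POLR2K had 738 and 394, 1.87-fold lower, with a log2 ratio of -0.47 in another probe set. UBTF, the factor that bends ribosomal DNA for transcription, had 1245 and 643, 1.94-fold lower, with a log2 ratio of -0.86 in another probe set. The rule for named genes took these 4. POLR2E, POLR1G, EXOSC5 and ZNHIT3 were the remaining lower genes, with log2 ratios of -0.82, -0.69, -0.87 and -0.81; they are named after their values were seen.

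In the other direction, RIOK1, a kinase of late small subunit maturation, had 738 untreated and 1086 with eltrombopag, a log2 ratio of 0.56. RPF2, of large subunit assembly, had 1072 and 1573, a log2 ratio of 0.55. EXOSC10, the nuclear nuclease of the exosome, had 1131 and 1651, a log2 ratio of 0.55, but 0.13 in a dimmer probe set. SURF6 had 334 and 475, a log2 ratio of 0.51. None of these 4 reached 1.5-fold on the deposited scale. MYC had 4879 and 4476, a log2 ratio of -0.12, equal to the median of all genes at this rounding.

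**Figure D5:**
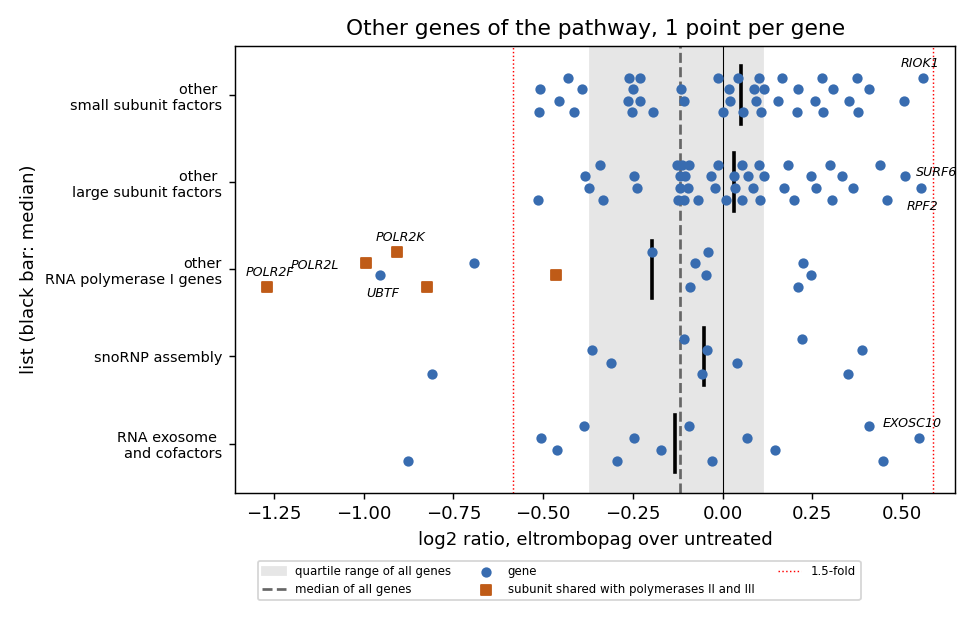
Log2 ratio of eltrombopag over untreated for the other measured genes of the pathway (MYC not shown), 1 point per gene by list, with the list's median as a black bar, the range between the quartiles of all genes in grey and 1.5-fold dotted in red. The 5 POLR2 subunits, which polymerases I, II and III share (squares), lie between -1.27 and -0.46, to the left of most other genes.

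The identity of the cells was checked with marker genes. Of 13 promyelocyte genes on the array, 10 exceeded the floor in each sample, among them MPO with 1556 untreated and 1467 with eltrombopag, while ELANE, SPI1 and LYZ lay below it in both. Of 14 plasma cell genes, which are not typical of HL60, 11 lay above the floor in both samples and CD27, CD79A and FCRL5 below it. The summed signal of the plasma cell genes was 17925 untreated and 11148 with eltrombopag. Of the 11 measured ones, 10 had a log2 ratio below 0, against 6051 of 9597 genes, and their median was -0.93. The summed signal of the promyelocyte genes was 16784 and 17194, of which SRGN (7160 and 7685) and MYB (4349 and 5855) made up the largest part. Of the 10 measured promyelocyte genes, 7 had a log2 ratio below 0, near the share of all genes, with a median of -0.21. Past 1.5-fold lower were 4 of the 10, against 11.8% of all measured genes. These were CEBPA at -1.55, CSF3R at -1.17, CTSG at -0.84 and RNASE2 at -0.76, named after their values were seen. No T cell gene of 6 and 2 of 7 fibroblast and epithelial genes, COL1A2 and KRT8, lay above the floor in both samples. The plasma cell genes thus go against the label in part. Most measured genes of both lists had lower signals with eltrombopag, as did most of all genes, and the part of these lists in the ratios above was not tested.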

How the data were processed

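The authors deposited linear signal intensities, 1 for each probe set in each sample. The submitters' processing notes name MAS5, with its version and scaling target not given in the sources used here. Per the labels, biotinylated cRNA was prepared from total RNA. Of 54613 probe sets, the platform annotation names 1 gene for 41091, several for 1801 (left unnamed) and lists none for 11721. Of the 41091, 41037 matched RefSeq gene identifiers, which changed 0 symbols. Signals below the 60th percentile of both samples pooled were set to it, and log2 followed. The probe set with the highest mean log2 signal stood for its gene. Counts past 1.5-fold and 2-fold are descriptions, as 1 sample per group allows no test. The members, role groups and other lists were chosen with earlier results of these data known. The text gives all 40 members with values and, of the other pathway genes, the 4 with the largest ratios in each direction and MYC. Some further pathway genes are named for their role or after their values were seen. Further probe sets are given where they went the other way or differed by over 0.5, and some others to show agreement. Median centring, quantile normalization, lowess (span 0.3), a floor at the 50th or at the 75th percentile, no floor, the mean over probe sets and filters on probe sets were tried. Steps were tested on simulated data and run in Python 3.11.15 with pandas 2.3.3 and statsmodels 0.14.6.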

Additional observations from a re-analysis of the deposited data

How the results depend on the processing

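The counts of 0 members at least 2-fold higher or lower held under every alternative tried. NOP10 was below 1.5-fold after median centring, which left 0 lower members, and this count was also 0 among members with at least 2 measured probe sets that all lay on the same side of 0, since NOP10 has 1. Without _x_at and _s_at probe sets, 0 members were 1.5-fold higher, since LYAR has no other kind; box C/D then rested on NOP58 alone (0.17) and the median of the multifunctional nucleolar proteins was -0.24 over 2 genes. Under that filter on agreement, the median of the large subunit factors was -0.30 over 2 genes, and the box C/D and box H/ACA groups had no gene left. Over all alternatives the log2 ratio of LYAR ran from 0.60 to 0.85 and that of NOP10 from -0.69 to -0.57. The median of the members ran from -0.13 to 0.19, that of the RNA polymerase I genes from -0.19 to -0.03 and that of the box H/ACA genes from -0.41 to -0.26. The median of the members changed sign under the filter on agreement, to -0.13 over 9 genes, and that of the multifunctional proteins also with the mean over probe sets, to -0.05. With 1 array per group, none of these ranges includes the spread between cultures.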
